A study of Hordeum vulgare with 2 samples.

Results

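The records described here are the degradome cut sites of barley shoots that were assigned to miR156 or miR157. Members were all records of the deposited lists whose small RNA name held either family number, and there were 2538 of them among 57909 records. ZD9 gave 777 of its 17485 records and XZ153 gave 1761 of its 40424. Of the 777 ZD9 records, 687 carried values and 90 named a site and a small RNA without any. All 90 also stood in the XZ153 list at the same position and under the same name, while 14% of the 687 with values did. The members fell on 1222 genes under 41 small RNA names, which spelled 36 different sequences.

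The study asked which microRNAs respond to low potassium in shoots of Tibetan wild and cultivated barley, and degradome sequencing was run on 1 library of the cultivar ZD9 and 1 library of the cultivar XZ153. The method sequences RNA fragments from their uncapped 5′ ends, so that a microRNA-guided cut shows as reads starting at 1 nucleotide. Both libraries came from shoots of seedlings grown in nutrient solution and set, at the stage of the second leaf, at potassium of 0.01 mM or of 1 mM, the control level. The labels do not say which potassium level either library came from, and with 1 library per cultivar no difference between them has a replicate check.

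Plant microRNAs pair with their targets along nearly their whole length, and an Argonaute protein cuts the target opposite the middle of the small RNA. The miR156 strand from the 5′ side of its hairpin is one of the most conserved plant microRNAs and is best known for cutting messenger RNAs of SPL transcription factors (SQUAMOSA PROMOTER BINDING PROTEIN-LIKE). In Arabidopsis it is abundant in young shoots and declines as the plant ages, and its SPL targets promote the change to adult leaves and to flowering. miR157 is a close relative that shares these targets. The other strand, here called 3p, and other pieces of the hairpin arms are not what the family is known for.

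The member names were sorted into mature strands and hairpin arms. Mature names of the 5p strand numbered 15, with 10 different sequences, and 12 of the 15 carried the seed of osa-miR156a, bases 2 to 8. Mature 3p names numbered 7. Hairpin arms, written MIR in the lists, gave 6 miR156 names and 13 miR157 names. Prefixes give the species of the matched reference (hvu barley, osa rice, bdi Brachypodium, ata Aegilops, mtr Medicago, ath Arabidopsis), and suffixes give differences from it. The sequences below are the 5p forms that the best-paired sites were assigned to, written 5′ to 3′ with the seed in capitals.
osa-miR156a: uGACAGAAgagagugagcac
ath-miR156g: cGACAGAAgagagugagcac
mtr-miR156b-5p_1ss4CT: uGAUAGAAgagagugagcac
bdi-miR156a_R-1_1ss9GT: uGACAGAAuagagagagcac
hvu-miR156a_R+4: uGACAGAAgagagugagcacaaacc

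These forms are near-copies of each other. The names ata-miR156a-5p and bdi-miR156b-5p have the same sequence as osa-miR156a, and far-miR156a_R-1_1ss9GT has that of bdi-miR156a_R-1_1ss9GT. Counted from the 5′ end of osa-miR156a, ath-miR156g differs by U1C, mtr-miR156b-5p_1ss4CT by C4U, which lies in the seed, and bdi-miR156a_R-1_1ss9GT by G9U and U14A. The only mature miR157 name, ath-miR157a-5p_L-1_1ss10GT, has the same sequence as ahy-miR156b-5p_L-1_1ss10GT (G9U, G11U and U14A) and gave 1 record, in XZ153 on HORVU5Hr1G098960, with a p-value of 0.880. Everything else listed under miR157 came from hairpin arms, and none of the 19 arm names had the seed of osa-miR156a.

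The arm names of the lists look different. Of the 13 miR157 arms, 9 consisted of A and G alone, and the 13 had a median purine content of 100%. The following arms, with bases 2 to 8 in capitals, are shown because the first 3 are examples of the purine-rich arms at which the families overlapped, and because the last 4 gave the sites with the most reads in ZD9.
cas-MIR157b-p5_1ss4AG: aGAGAGAGagggagagggag
aly-MIR157c-p5_2ss16AG17AG: gAGGGAGAgggagagggaga
osa-MIR156f-p3_2ss14AG18GA: gAGAGAGAgagagggaua
mtr-MIR156a-p3_2ss16CG17TA: uGGGAGCUcuuucuugau
lus-MIR156g-p5_2ss2CA19TC: uAUCAUCCuucuucuucuccu
hvu-MIR156b-p5: aCAGCGGCaggcugcgucuga

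Cuts are described by the authors' CleaveLand values. The Allen score is a mismatch penalty, lower when pairing is better. The category runs from 0, where the cut is the highest position of its transcript, to 4, where it rests on 1 read. The deposited p-value is the chance, within 1 library, that an alignment this good falls on a position of that category without cleavage, and it is unadjusted. A record is called supported below when its category was 0 to 2 and its p-value at most 0.05. The ZD9 values stop at transcript HORVU2Hr1G036110.5, and the range of IDs up to there, where XZ153 has 8350 records, is the shared range.

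The best-paired mature 5p records had 1 short target sequence in common. Mature 5p targets with an Allen score of at most 3 had a run of 13 bases in common, CUCUCUUCUGUCA, which pairs with the 5′ portion of miR156 and is called the SPL-type run here because known miR156 sites in SPL transcripts have this form. The run was derived from these records, so its presence in them is a description. It occurred in 24 XZ153 records on 6 genes and in 1 ZD9 record on a 7th gene, all under mature 5p miR156 names. It occurred in 0 of 38663 XZ153 records and 0 of 14857 ZD9 records of all other families, which is also a description, since the run is complementary to miR156 and each position is listed under 1 name. The listed cut lies opposite position 10 of the small RNA in all 25 records, because CleaveLand looks up reads at that position, so this is no finding. The gene IDs were not annotated in the sources used here, so whether these genes encode SPL proteins is not stated. The listed sites, with the run in capitals, were these.
HORVU5Hr1G076380: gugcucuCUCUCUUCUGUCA
HORVU6Hr1G019700: augcucuCUCUCUUCUGUCA
HORVU2Hr1G048280: augcuccCUCUCUUCUGUCA
HORVU6Hr1G031450: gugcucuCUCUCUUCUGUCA
HORVU5Hr1G073440: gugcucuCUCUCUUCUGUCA
HORVU3Hr1G094730: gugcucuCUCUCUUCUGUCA
HORVU0Hr1G039170: ggacugugcucuCUCUCUUCUGUCA

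Of the 6 XZ153 genes, 3 had the run cut in category 0. HORVU5Hr1G076380 was cut at position 3261 of isoform 2 under ath-miR156g, with a p-value of 0.00167, an Allen score of 2 and a free energy ratio of 0.887 to a perfectly paired duplex. HORVU2Hr1G048280 was cut at position 123 of isoform 1 under osa-miR156a, with a p-value of 0.00559 and the same Allen score of 2. Each of these 2 genes had this 1 record in the whole XZ153 list, so that no other small RNA was listed on either.

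HORVU6Hr1G019700 held 14 of the 24 records, on 13 isoforms. The cut was in category 0 on isoform 1 at position 6222, on isoform 4 at position 3051 and on isoform 7 at position 1593, with p-values of 0.00476, 0.00431 and 0.00439. On the other isoforms it was in category 4, which means 1 read, with p-values from 0.201 to 0.241. The target bases were the same on all of them, so the categories differed without a difference in pairing. How reads were shared among isoforms is not known here. Isoform 12 was listed at 2 neighbouring positions, 2300 under osa-miR156a and 2301 under osa-miR156a_L+1, a form with 1 more base at its 5′ end.

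The other 3 XZ153 genes had weak positions with low p-values. HORVU6Hr1G031450 was cut at position 560 of isoform 8 under bdi-miR156a_R-1_1ss9GT, in category 3 and with a p-value of 0.000951, the lowest of all members. HORVU5Hr1G073440 was listed on 3 isoforms, all in category 4, with p-values of 0.0422, 0.0786 and 0.114. HORVU3Hr1G094730 was listed on 4 isoforms, all in category 4, with p-values of 0.0463, 0.0586, 0.0706 and 0.0706. Over the 6 genes, 8 of the 24 records had p-values of at most 0.05, and each gene had at least 1 of them. Among all XZ153 records, 1.03% reached that limit in any category, and 18 of the 1761 member records did. Since the Allen score enters the p-value, a well-paired site can reach the limit in a weak category. Many did not: the category 4 records of HORVU6Hr1G019700, with Allen scores of 2 to 3, had p-values from 0.201 to 0.241.

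In ZD9 the run was listed with values once, at position 1001 of HORVU0Hr1G039170 isoform 4 under hvu-miR156a_R+4. That cut rested on 1 read, with an Allen score of 3 and a p-value of 0.0492, and the gene had no record in XZ153. It was 1 of 5 ZD9 member records with a p-value of at most 0.05 in any category, a limit that 0.914% of all ZD9 records reached. All 6 XZ153 genes lie beyond the shared range, so their absence among ZD9 records with values says nothing about ZD9 shoots. The ZD9 list named 4 records on HORVU3Hr1G094730 in its stretch without values, and whether any of them lay at the run was not determined. In XZ153, 4 of the 9 records on this gene held the run. A comparison of the cultivars at these sites is therefore not possible here.

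**Figure D1:**
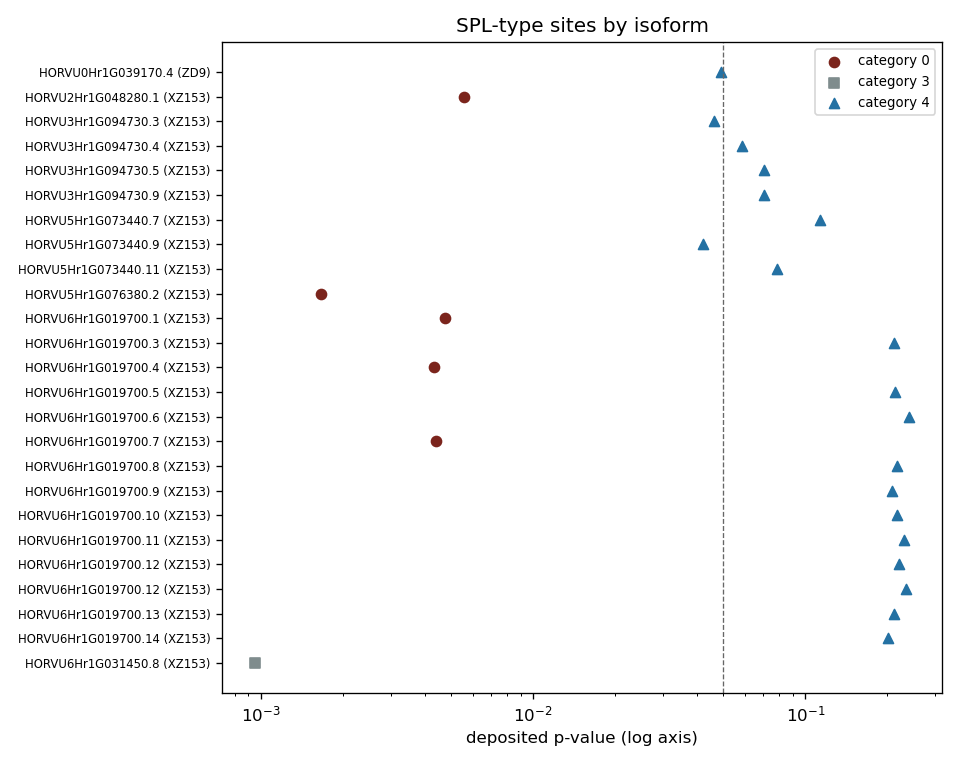
Deposited p-value (log axis) of the 25 records whose target held the SPL-type run, one line per record, named by transcript and library, with the marker giving the category and the dashed line at 0.05. The 5 category 0 records lie on 3 genes between 0.00167 and 0.00559, while the other isoforms of HORVU6Hr1G019700 sit at 0.201 to 0.241.

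The 5p names listed at these sites differed in pairing at a few positions. On HORVU6Hr1G019700, osa-miR156a left its positions 14 and 20 unpaired, with an Allen score of 2. On the same bases mtr-miR156b-5p_1ss4CT left the same positions unpaired but scored 3, and it was the name listed for isoforms 3 and 4. On HORVU6Hr1G031450, HORVU5Hr1G073440 and HORVU3Hr1G094730, bdi-miR156a_R-1_1ss9GT, where listed, left only its position 9 unpaired, with a free energy ratio of 0.932 on the first gene and 0.924 on the other two. Its U14A difference is at the position that osa-miR156a left unpaired, and its G9U difference is at the position it left unpaired itself. Names of the osa-miR156a sequence took 11 of the 14 records of HORVU6Hr1G019700. The lists hold 1 record per position, so a cut that several of these near-identical forms could direct appears under 1 of them, and the form acting in the plant cannot be told from the name.

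Supported records were few in both libraries. In XZ153, 10 of 1761 member records were supported, or 0.568% (exact Clopper-Pearson 95% interval 0.273 to 1.04), against 0.675% of all XZ153 records. These 10 records made 7 pairs of family and gene (exact Poisson interval 2.81 to 14.4). In ZD9, 4 of 687 were supported, or 0.582% (0.159 to 1.48), against 0.695% of all ZD9 records, and all 4 were isoforms of 1 gene. In the shared range XZ153 had 3 supported records among 335, on 2 genes, where 0.910% of all records were supported. The same 3 were its only member records there with a p-value of at most 0.05 in any category, which 1.44% of all records reached, and 6 members were in category 0, which held 1.40% of all. Over all names, the share of supported member records was thus near that of each list. All intervals cover counting error only, because copies made by PCR and isoforms of a gene repeat 1 molecule or 1 cut.

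Mature 5p names held most of the supported records in XZ153. Of the 71 mature 5p records in XZ153, 6 were supported, or 8.45% (3.16 to 17.5), on 4 genes, and 5 were in category 0, or 7.04% (2.33 to 15.7). Category 0 held 1.49% of all XZ153 records and 1.70% of all ZD9 records. The 957 miR156 arm records of XZ153 gave 11 in category 0 and 1 supported, and the 592 miR157 arm records gave 13 and 1. Mature 3p names gave 2 supported records among 141, both on 1 gene. In ZD9 the 17 mature 5p records, on 12 genes, included 0 in category 0, for which the exact interval reaches 19.5%. The 5p share in XZ153 rests on the SPL-type genes, which supply 5 of the 6 supported records.

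**Figure D2:**
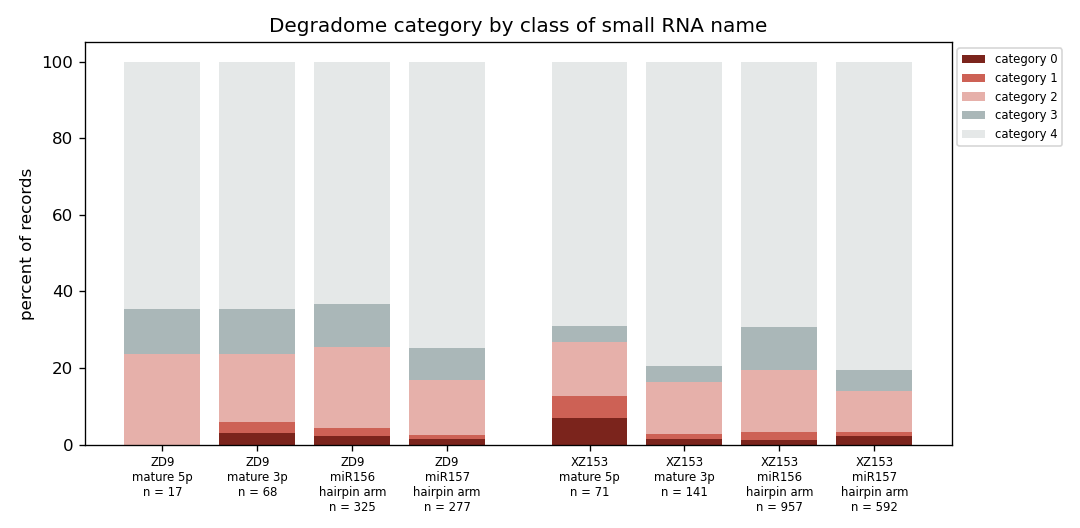
Percent of records in each degradome category (0, highest position of the transcript, to 4, 1 read) by library and class of name, with the number of records under each bar. Category 4 makes up most of every bar, and category 0 is 7.04% of the XZ153 mature 5p records.

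At Allen scores of at most 3, a limit chosen after the values were seen, cuts of category 0 were listed for mature 5p names and for no arm name. At an Allen score of at most 3, XZ153 had 21 mature 5p records on 6 genes, the SPL-type genes, of which 3 had a category 0 cut at that score (50%, exact interval 11.8 to 88.2). Arm names had 20 records at such scores, on 17 genes, with 0 in category 0 (exact interval 0 to 19.5%). Their lowest p-value was 0.0666 and their median 0.882. Over all small RNAs of XZ153, 13.4% of genes paired this well had a category 0 cut, a share inside the intervals of both the 5p and the arm genes. In ZD9, 9 genes had arm records at these scores, again with 0 in category 0 and with p-values of 0.565 or higher, where 6.54% of all such genes had one. Just past that limit, arm names did have cuts of category 0. In XZ153 these were aly-MIR157c-p3_2ss1GC17AG on HORVU5Hr1G014340, with a score of 3.5 and a p-value of 0.379, and cas-MIR157b-p5_1ss4AG on HORVU2Hr1G081750, with a score of 4 and a p-value of 0.206. In ZD9, aly-MIR157c-p3_2ss1GC17AG had 6 reads on HORVU1Hr1G060420, with a score of 4 and a p-value of 0.112.

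The best-paired arm record was that of mtr-MIR156a-p3_2ss16CG17TA on HORVU0Hr1G023930, with an Allen score of 1 in category 4 and the p-value of 0.0666. Another with a score of 1, cas-MIR157b-p5_1ss4AG on HORVU1Hr1G078350, lay in category 4 with a p-value of 0.439. Both scores are lower than the 2 of the best SPL-type records, and both cuts rested on 1 read.

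**Figure D3:**
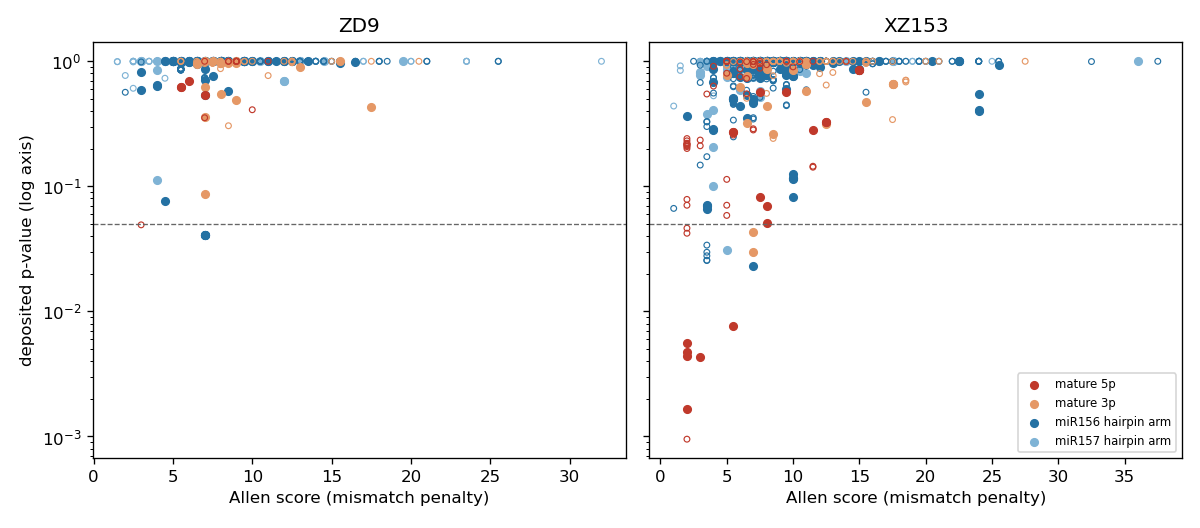
Allen score against deposited p-value (log axis) for every member record with values, coloured by class of name, with filled points for categories 0 to 2, open points for categories 3 and 4, and a dashed line at 0.05. In XZ153 the points below 0.01 are all mature 5p, with Allen scores of 2 to 5.5, and in ZD9 the lowest p-value is 0.0405.

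Outside the SPL-type run, supported records lay on 4 genes. Their target sequences are given with the bases on each side of the cut in capitals.
HORVU7Hr1G089850: gguuggugcucgauuCUcucugucc
HORVU2Hr1G013210: gcugacagagaaGAgacgguggc
HORVU1Hr1G004400: cgcggcgcggCGugccgcugc
HORVU7Hr1G042000: guagugcucUCgucgucugu

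HORVU7Hr1G089850 was the other mature 5p gene. Its isoform 4 was cut at position 783 in category 1 under hvu-miR156a_R+4, with an Allen score of 5.5 and a p-value of 0.00767, and its isoform 2 was in category 4 with a p-value of 0.257. The site does not hold the run. HORVU7Hr1G042000 was the only supported miR157 gene. Its isoform 3 was cut at position 485 in category 0 under ath-MIR157a-p3_2ss14TA19TC, with an Allen score of 5 and a p-value of 0.0313, and this was its only member record.

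HORVU2Hr1G013210 was the supported gene of the 3p strand. Under osa-miR156c-3p, XZ153 had isoform 5 cut at position 1124 in category 0 (p-value 0.0299) and isoform 3 at position 817 in category 1 (p-value 0.0430). ZD9 had the same positions with 2 reads each, in category 1 (p-value 0.0873) and category 2 (p-value 0.619), and isoform 4 with 1 read. The Allen score was 7 in each case. The cut was thus listed in both libraries, and only the XZ153 records met the limit. In ZD9 a record of osa-MIR319a-p5_2ss14AT17CT overlapped this site, with its cut at position 1126.

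HORVU1Hr1G004400 was the only member gene supported in both libraries, under hvu-MIR156b-p5 with an Allen score of 7. In ZD9 its isoforms 1, 2, 3, 5 and 6 had 15, 16, 11, 14 and 13 raw reads at the cut. The first 4 of these were in category 0, with p-values from 0.0405 to 0.0410, and isoform 6 was in category 2 with a p-value of 0.535. In XZ153 isoform 2 was in category 0 with a p-value of 0.0232, while isoforms 5 and 6 were in category 4 with p-values of 0.736 and 0.735. Read counts at the cut were alike across the ZD9 isoforms, whereas categories split in both libraries. The ZD9 list held 50 records of other families on this gene and the XZ153 list 12. In ZD9, 1 of them, of gma-miR4995_R-3_1ss1AC, overlapped the site.

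Other mature names gave weaker sites. The next ZD9 genes by pairing after HORVU0Hr1G039170 were HORVU0Hr1G019870, HORVU1Hr1G013210 and HORVU1Hr1G080060, each with a score of 5.5. HORVU0Hr1G019870 was cut under mtr-miR156e in category 2 on isoforms 1 and 2 in both libraries, with 3 and 5 reads in ZD9. Its p-values were 0.618 and 0.622 in ZD9 and 0.270 and 0.273 in XZ153. On HORVU1Hr1G092540 isoform 1 the libraries differed by 1 nt and by name: ZD9 had 2 reads at position 1096 under ath-miR156g (p-value 0.354), and XZ153 a category 1 cut at position 1097 under osa-miR156a_L+1 (p-value 0.0508). The remaining ZD9 genes among the 10 best paired had scores of 6 to 7 and p-values of 0.0873 or higher. In XZ153 the best-paired gene after the SPL-type ones was HORVU2Hr1G036910 under mtr-miR156e, with a score of 3.5 in category 4 and a p-value of 0.548.

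Raw reads, available for ZD9 alone, were low at member sites. The 687 sites held 1499 of the 34935 reads of the list, or 4.29%, with 1 read at 468 sites (68.1%, 64.5 to 71.6) and 39 at the highest. Over the whole ZD9 list 66.2% of sites held 1 read. Mature 5p sites held 29 reads in all and at most 5 at a site, and 3p sites 103 in all and at most 5. The miR156 arms held 931 reads on 325 records and the miR157 arms 436 on 277, against 17 records for mature 5p and 68 for 3p. Every site with more than 5 reads was thus an arm site, but arm names also made up most of the member records.

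The 5 genes with the most reads were all listed under miR156 arms. HORVU0Hr1G001490 had 39 and 29 reads on isoforms 1 and 2 under mtr-MIR156a-p3_2ss16CG17TA, with an Allen score of 4, and 8 to 15 reads on 3 isoforms under hvu-MIR156b-p5. HORVU0Hr1G004830 had 33 and 15 reads under osa-MIR156f-p3_2ss14AG18GA. HORVU0Hr1G003270 had 24 to 32 reads on 3 isoforms under mtr-MIR156a-p3_2ss16CG17TA and 21 to 28 under lus-MIR156g-p5_2ss2CA19TC. The last name also gave 18 reads on HORVU0Hr1G025160, and HORVU1Hr1G004400, described above, was the 5th gene. On the first 4 genes no ZD9 cut was in category 0 or 1, so another position of each transcript held more reads, and the lowest ZD9 p-value was 0.637. High read numbers at a cut thus came without support on these 4 genes.

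In the shared range, 96 positions on 50 genes were listed in both libraries, 96 of 96 under the same name. Each position is listed under 1 name, by a rule not known here, so the agreement of names is a description. The 96 positions made 14% (11.5 to 16.8) of the ZD9 member records and 28.7% (23.9 to 33.8) of the XZ153 ones. Over all records the shares were 18.3% and 34.0%. Of ZD9 sites with 1 read, 36 of 468 were also in XZ153, or 7.69% (5.45 to 10.5). Of sites with at least 11 reads, 17 of 20 were, or 85.0% (62.1 to 96.8), although these 20 lay on 7 genes. Overlap by read number was not computed over all records, so this rise is not shown to be particular to the members. The category was the same in both libraries at 54 of the 96 positions, of lower number in ZD9 at 30 and of lower number in XZ153 at 12. Depth of the libraries is unknown, and a category depends on it. By class, 61 of the shared positions were miR156 arm sites, 23 miR157 arm, 9 mature 3p and 3 mature 5p.

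**Figure D4:**
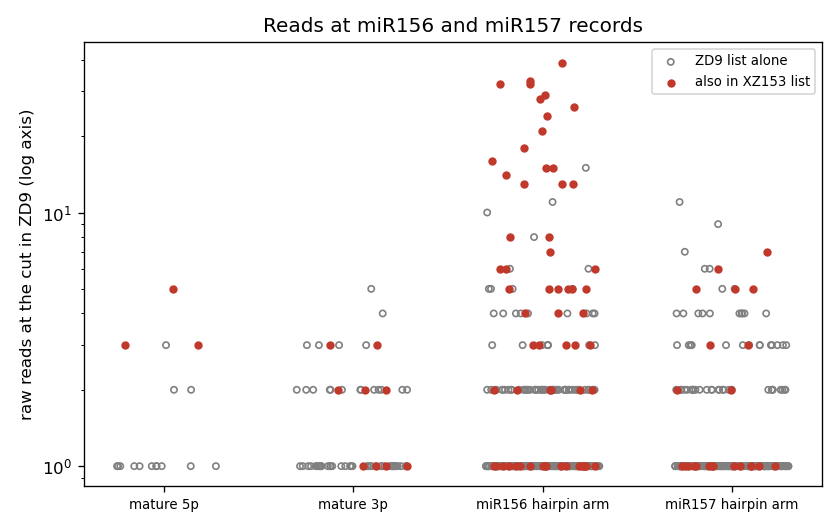
Raw reads at the cut in ZD9 (log axis) for the 687 member records by class of name, filled where the same transcript position is also listed in XZ153; points are spread sideways at random. Mature 5p and 3p sites reach 5 reads, and 17 of the 20 sites with at least 11 reads are filled.

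The sites listed under both families lay on pyrimidine-rich stretches, which is what purine-rich names pair with. No position was listed under both a miR156 and a miR157 name in either library, and with 1 record per position none could be. Taking target sequences of a gene with 14 bases in common as 1 site, 4 ZD9 sites and 8 XZ153 sites were listed under both families. In XZ153, 15 of the 16 miR156 records there were of osa-MIR156f-p3_2ss14AG18GA, and in ZD9 4 of 5. The remaining record was under a mature 5p name in each library, ath-miR156g on HORVU3Hr1G105260 in XZ153 with an Allen score of 10.5, and bdi-miR156a_R-1_1ss9GT on HORVU1Hr1G041250 in ZD9 with a score of 10. None of the 24 SPL-type records shared a site with a miR157 name. Each position is listed under 1 name, and the only mature miR157 name has the sequence of a miR156 name. The lists therefore cannot show whether miR157 also cuts at SPL-type sites.

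HORVU7Hr1G033500 shows the form of these overlaps. On its isoform 1 in XZ153, 6 names were listed at 6 positions from 2202 to 2210, with Allen scores from 4 to 10. The lowest p-value on this stretch was 0.997 on isoform 1, 0.557 on isoform 2, 0.874 on isoform 3 and 0.995 on isoform 4. The sites below, from isoform 1 and with the bases beside the cut in capitals, slide along 1 repeat of C and U.
cas-MIR157b-p5_2ss19AG20AG: accucugaaucCUcucucucuc
osa-MIR156f-p3_2ss14AG18GA: gaauccuCUcucucucuc
cas-MIR157b-p5_1ss3AG: aauccucuCUcucucucag
cas-MIR157b-p5_1ss4AG: aauccucucUCucucucagc

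HORVU1Hr1G071960 isoform 2 in ZD9 had 5 names at positions from 913 to 926 with 11 reads in all. Its category was 2 at the strongest and its p-values rounded to 1. HORVU2Hr1G046740 had miR157 arms or osa-MIR156f-p3_2ss14AG18GA on 12 isoforms in XZ153, with every p-value at 1 after rounding. Neighbouring reads of 1 such stretch thus went to different names of both families.

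The 9 names made of purines alone were all miR157 arms, so they do not bear on overlap of the 2 families. In XZ153 they gave 378 records on 230 genes, with targets of a median 90.9% pyrimidine, against 40.0% for the other member names. Because A and G pair with C and U, such targets follow from the choice of names and are no finding. Cuts of the 9 names lay within 200 nt of the transcript start in 34.7% of records (29.9 to 39.7). The share was 11.7% (10.1 to 13.5) for the other members and 9.87% for the whole list. In ZD9 the shares were 27.7% (21.1 to 35.2), 12.5% (9.76 to 15.6) and 8.30%. Supported records among them numbered 0 in both libraries, where 0.675% of all XZ153 and 0.695% of all ZD9 records were supported. In category 0 were 8 of the 378 XZ153 records and 3 of the 166 ZD9 records. Category 0 held 1.49% and 1.70% of all records in those lists. Names that fall on the same repeat share target stretches, so these records are not independent of each other.

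**Figure D5:**
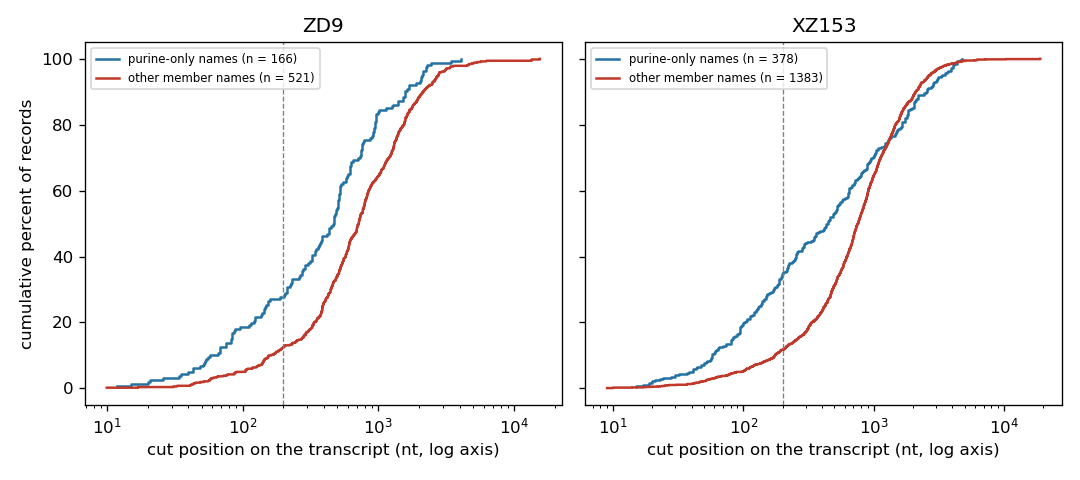
Cumulative percent of records by cut position on the transcript (nt from the transcript start, log axis), for the 9 purine-only names and for the other member names, by library, with a dashed line at 200 nt. At that line the purine-only curve stands at 27.7% in ZD9 and 34.7% in XZ153, above the other members at 12.5% and 11.7%.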

How the data were processed

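Degradome cuts were listed for 1 ZD9 and 1 XZ153 shoot library. The input was 20 µg of total RNA, amplified over 15 PCR cycles after adapter ligation and read to 50 nt, per the labels' protocols. The authors' deposited tables are CleaveLand output, with version, aligner and build not given in the sources used here. For ZD9 alone, the deposited raw read counts (reads at the cut) were used. The deposited Allen score and category are scores, and the deposited p-value is unadjusted. The deposited free energy ratio has a lowest value of 0.65. Library depth is unknown.

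Names were matched by family number, isoforms merged to genes, and targets of a gene with 14 bases in common merged to sites. Counts and exact intervals were computed with Python 3.11.15, pandas 2.3.3 and scipy 1.17.1. Site merging, the reading of unpaired positions and the sorting of names were tested on made records with known answers. No test was made between cultivars, which have 1 library each. Named genes were those with supported records, the 10 best paired under mature names per library, the 5 with the most ZD9 reads, and overlapping other families. HORVU0Hr1G023930, HORVU1Hr1G078350, HORVU7Hr1G033500, HORVU1Hr1G071960, HORVU2Hr1G046740, HORVU3Hr1G105260, HORVU1Hr1G041250, HORVU5Hr1G098960, HORVU5Hr1G014340, HORVU2Hr1G081750, HORVU1Hr1G060420 and the genes named in the closing section were chosen after their values were seen, as were the SPL-type run and the Allen limit of 3 that defines it. The members and lists were chosen with earlier results of these data known. No gene ID matched the annotation table at hand, so no gene names or genome coordinates are given. A further 3 ZD9 lines and 20 XZ153 lines were not analysed here. Alternatives covered the p-value limit, categories, pairing, energy and name class.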

Additional observations from a re-analysis of the deposited data

How the results depend on the processing

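Of 41 values under other settings, 21 moved and 20 did not, counts being held to 1.5 times and shares to the reported interval, with 0 reversed. The supported share of records stayed in its wide interval but moved from 0.582% to 0.307% over genes in ZD9, and in XZ153 from 0.568% to 0.707% over genes, 0.341% at p-values of at most 0.01 and 0.454% in category 0 alone. Fewer records meet a stricter limit by construction. The 7 supported pairs of the whole XZ153 list became 4 at p-values of at most 0.01, 3 at Allen scores of at most 4, 4 at free energy ratios of at least 0.75, 2 with arm names alone and 12 with any category, the last added after the data were seen. The 2 pairs of the shared range became 0 at p-values of at most 0.01, 0 at Allen scores of at most 4, and 1 each at the stricter energy ratio, with mature names alone and with arm names alone. The 1 pair of ZD9 became 0 at the stricter p-value, at the stricter Allen score and with mature names alone, 4 when records were counted and 2 with any category, and its share of records, 0.582%, became 0 at the stricter p-value. Cuts under both families rose from 0 to 2 when positions within 1 nt were joined and to 12 with 14 bases in common, a setting also added later. Genes with an Allen score of at most 2.5 numbered 12 in XZ153 and 5 in ZD9, and 70 and 22 at a score of at most 4; 6 of the 12 were under mature names. Unknown depth, the early end of the ZD9 values and 1 read at most sites limit what these lists can show. No paired analysis was possible because each cultivar has 1 library.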

Other observations

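A few arm sites of XZ153 had p-values of at most 0.05 in weak categories and so were not supported. On HORVU2Hr1G070140, lus-MIR156g-p5_2ss2CA19TC had an Allen score of 3.5 on isoforms 1, 3 and 6, all in category 4, with p-values of 0.0339, 0.0297 and 0.0255. On HORVU4Hr1G058970, mtr-MIR156a-p3_2ss16CG17TA had a score of 3.5 on isoforms 9 and 11 in category 3, with p-values of 0.0257 and 0.0278, at positions 265 and 264. These 2 arm names gave 632 of the 1761 XZ153 member records, or 35.9%. Of the 632, 0 were supported and 5 had p-values of at most 0.05, where 0.675% and 1.03% of all XZ153 records did so. Category 0 alone did not bring a low p-value: of the 31 XZ153 member records in category 0, on 28 genes, 8 were supported, and of the 13 in ZD9, on 9 genes, 4 were, with 2 to 16 reads at the cut.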
